A study of Mus musculus with 8 samples.

Results

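A set of 10 genes of lipid transport and of the yolk sac was followed through 8 mouse RNA-seq libraries: the apolipoprotein genes Apoe, Apoc1, Apoa1, Apoa2 and Apob, the secreted carrier genes Afp, Ttr and Rbp4, and the endocytic genes Dab2 and Cubn. They were taken by symbol from the authors' expression table, 10 of its 20153 gene identifiers, and Dab2, which had a second entry at 0 in every library, was represented by the higher entry. The set was chosen by function with earlier results on these libraries known. Among the FPKM values in view were the difference of Apoe between iPGCs and primordial germ cells and the level of Afp in 1 primordial germ cell library, so those are given as a description, without a test. There were 4 groups of 2 libraries. Primordial germ cells (PGCs), the embryonic forerunners of eggs and sperm, came straight from embryos (E9.5, passage 0, strain Oct4gfpXCD1), about 250 cells per library. EGC lines 4 and 7 are embryonic germ cell lines derived from sorted E9.5 PGCs of the same strain, were at passage 6, had been grown in serum and LIF on mouse embryonic fibroblasts, and gave 500 cells per library. The iPGCs were made in hanging drops from BVSC embryonic stem cells at passage 21, with 1500 cells per library, and the PGCLCs came from the same stem cells by way of epiblast-like cell aggregates, with 300 to 500 cells per library. Strain, origin, passage and cell number therefore differed together with the groups, and their parts in a difference cannot be told apart.

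As background, the visceral endoderm of the yolk sac feeds the early embryo before the placenta and liver take over. It takes up maternal proteins through cubilin (Cubn), a large receptor of the apical membrane, with the clathrin adaptor Dab2, and it secretes lipoproteins and carriers. Apob is the structural protein of very low density and low density lipoproteins, and Apoa1 and Apoa2 are the main proteins of high density lipoproteins. Apoe lets lipoprotein particles bind cell surface receptors, and Apoc1, from the neighbouring gene, modulates that uptake. Afp is the fetal counterpart of albumin, Rbp4 carries retinol in plasma, and Ttr (transthyretin) carries thyroid hormone and holds Rbp4. Fetal liver makes most of the same secreted proteins, and macrophages are a known source of Apoe.

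Of the 10 genes, 9 followed 1 of 3 patterns. Apoe and Apoc1 were low in PGCs and high in the other 3 groups. Dab2 and Cubn were at similar levels in PGCs and iPGCs and low in PGCLCs and EGCs. Afp, Apoa1, Apob, Rbp4 and Ttr were each highest in PGC library 1, and 4 of these 5 were listed at 0 in PGC library 2. Apoa2 followed none of these and is described on its own.

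Promoters of 3 of these 5 genes, Afp, Apoa1 and Apob, are shown as a description, with that of Apoe for contrast. Each line gives 200 bases from RefSeq (GRCm38.p6), 5′ to 3′ on the gene's strand, that end just before the more upstream of the RefSeq and GENCODE starts, for genes of the library 1 pattern with a single RefSeq entry and for Apoe. They lie at chr5:90490514-90490713 (Afp, plus strand), chr9:46228380-46228579 (Apoa1, plus), chr12:7977448-7977647 (Apob, plus) and chr7:19699189-19699388 (Apoe, minus). Capitals mark TATAAA and CCAAT, or their reverse complement, wherever either was found.
Afp: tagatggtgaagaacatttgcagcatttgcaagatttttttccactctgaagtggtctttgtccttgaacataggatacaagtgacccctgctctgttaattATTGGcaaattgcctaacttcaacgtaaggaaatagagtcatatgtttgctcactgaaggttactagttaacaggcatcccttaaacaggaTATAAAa
Apoa1: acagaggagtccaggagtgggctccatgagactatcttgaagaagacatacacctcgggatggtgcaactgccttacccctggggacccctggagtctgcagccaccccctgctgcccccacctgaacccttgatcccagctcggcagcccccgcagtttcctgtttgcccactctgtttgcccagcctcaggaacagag
Apob: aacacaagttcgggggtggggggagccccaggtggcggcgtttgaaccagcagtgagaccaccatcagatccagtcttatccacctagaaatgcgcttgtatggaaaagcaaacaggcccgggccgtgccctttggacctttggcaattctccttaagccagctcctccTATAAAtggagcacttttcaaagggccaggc
Apoe: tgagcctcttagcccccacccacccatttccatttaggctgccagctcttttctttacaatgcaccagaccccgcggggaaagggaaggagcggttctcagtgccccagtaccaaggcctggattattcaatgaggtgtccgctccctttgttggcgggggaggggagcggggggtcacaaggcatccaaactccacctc
Apob had TATAAA 31 to 26 bases upstream of its GENCODE start, and Afp had it 7 to 2 bases upstream of its RefSeq start, with CCAAT on the other strand 98 to 94 bases upstream. TATAAA occurred on either strand in 9.96% of 32851 RefSeq promoter windows of this length, taken upstream of the RefSeq start, and CCAAT in 29.3%. Of the 10 genes, 8 had a promoter entry, of which 2 held TATAAA (Apob and Afp) and 3 held CCAAT (Apoa2, Afp and Rbp4). Other words searched on both strands were AGATAA (7.8% of windows), TGATAA (6.18%), GGGCGG (31%), AGGTCA (11.4%) and the HNF1 palindrome (0.00913%). TGATAA was found in 1 of the 8 windows, that of Dab2, and the other 4 words in none. Only exact matches were counted, so a site that differs from a word in any fixed letter was missed. The exact HNF1 palindrome is so rare that its absence from 8 windows carries little information. A word found is a description and not a binding site. The GENCODE start lay upstream of the RefSeq start by 50 bases for Apoa1 and 29 for Apob, and downstream of it by 23 for Afp.

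Values are FPKM, the fragments counted on a transcript divided by its length and by the fragments mapped in the library, so levels are per length. Approximate depth, read from the smallest values in each column, was 3.4 M reads for iPGC library 1 and 10 to 22 M reads for the other 7. Genes at 1 FPKM or more numbered 7991 to 10039 per library. The PGC libraries stood apart from each other: the median absolute difference between them was 0.81 on the log2(FPKM + 1) scale over 11083 tested genes. A gene was tested when it reached 1 FPKM in at least 2 libraries, which 9 of the 10 did and Afp did not. Differences between groups are on the log2(FPKM + 1) scale, which understates changes of low genes, and were tested with limma over all 11083 genes with Benjamini-Hochberg adjustment. A gene is said to rise or fall when the adjusted p was under 0.05. The labels do not say that the 2 libraries of a group came from separate cultures or litters, so p-values measure the spread between these libraries, which may be technical. Of 9 germ cell markers, 7 to 9 reached 1 FPKM in each library. Dppa3 was at 409 and 574 FPKM in PGCs, 423 and 317 in iPGCs, 726 and 400 in PGCLCs, with 40.3 and 101 in EGC lines 4 and 7. Some markers were near or at 0 in a group or library. Nanos3 was at 0 and 0.906 FPKM in EGC lines 4 and 7, Dazl at 0 and 0.156 in PGCs, and Dnd1 at 0.732 in PGC library 1.

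**Figure D1:**
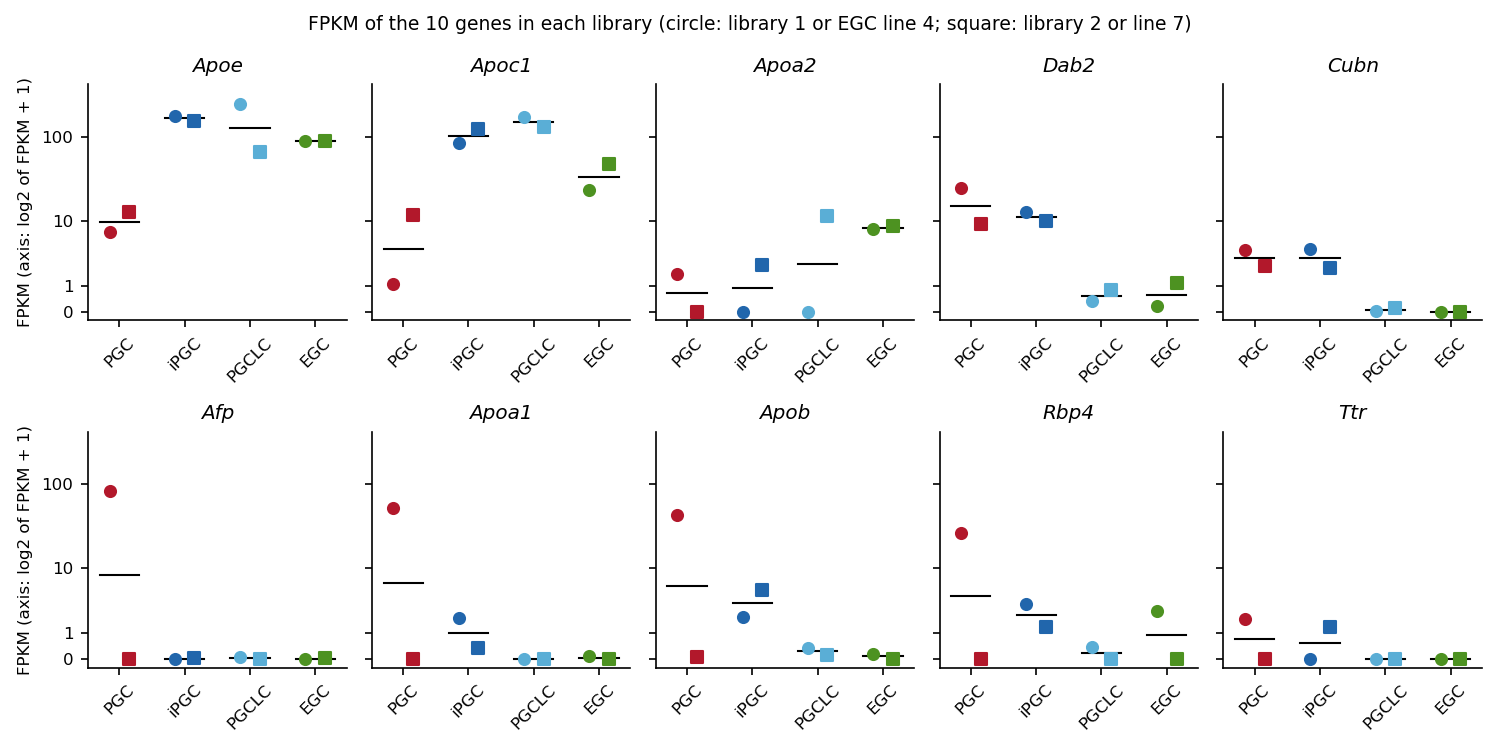
FPKM of each of the 10 genes (vertical axis, spaced as log2 of FPKM + 1) in the 4 groups; circles are library 1 or EGC line 4, squares library 2 or EGC line 7, and bars the mean on the log2 scale. Apoe and Apoc1 are low in PGCs, Dab2 and Cubn are low in PGCLCs and EGCs, and the points of Afp (82.6 FPKM), Apoa1 (53.0), Apob (43.2) and Rbp4 (26.7) in PGC library 1 stand far above their other points.

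Apoe was at 7.10 and 12.7 FPKM in PGCs, 175 and 153 in iPGCs, 238 and 67.0 in PGCLCs, with 88.8 and 89.6 in EGC lines 4 and 7. Every PGC value was below every value of the other 3 groups, while PGCLCs spanned both EGC and iPGC values. These levels rest on about 190 to 3600 reads per library. On the log2(FPKM + 1) scale PGCLCs exceeded PGCs by 3.59 ± 0.60 (SE, limma, adjusted p = 0.042). The PGC values in that difference were among those known when the gene was picked. The difference was 3.97 in iPGCs, given here as a description. In EGCs it was 3.10 ± 0.60 and did not pass (limma adjusted p = 0.0659).

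Apoc1 was at 1.09 and 12.0 FPKM in PGCs, 85.1 and 123 in iPGCs, 171 and 129 in PGCLCs, with 24.1 and 48.4 in EGC lines 4 and 7. The groups followed each other without overlap, from PGCs through EGCs and iPGCs to PGCLCs. PGC library 1 was lower than library 2 here, at about 8.1 reads against 69. Apoc1 rose in PGCLCs by 4.84 ± 0.80 (SE, limma, adjusted p = 0.042). Its differences from PGCs of 4.32 ± 0.80 in iPGCs (limma adjusted p = 0.0551) and 2.76 ± 0.80 in EGCs (0.14) did not pass. Neighbours above PGCs in this order were not separated by the test: EGCs minus iPGCs was -1.55 ± 0.80 (limma adjusted p = 0.543), and PGCLCs minus iPGCs was 0.53 ± 0.80 (1). EGCs minus PGCLCs was -2.08 ± 0.80 (limma adjusted p = 0.315). For Apoe the same 3 differences were -0.87 ± 0.60 (limma adjusted p = 0.643), -0.37 ± 0.60 (1) and -0.50 ± 0.60 (0.746). None of these 6 passed.

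The 3 comparisons with PGCs share the same 2 PGC libraries, so they are not independent of each other. Of the 9 tested genes, 2 rose in PGCLCs (Apoe and Apoc1) and none in EGCs. The PGC values of Apoe were known when it was picked, so its call in PGCLCs is no independent support. In iPGCs, leaving out Apoe, whose difference there was known, none rose, and none of the 9 fell in any of the 3. Over all tested genes 0.938%, 0.749% and 0.523% rose in PGCLCs, iPGCs and EGCs, and 0.117%, 0.0451% and 0.217% fell. The numbers of genes that rose and fell over the whole table moved with the scaling. They were 104 and 13 in PGCLCs, 29 and 7 with quantile normalization, and 36 and 18 with equal library medians. In iPGCs the corresponding pairs were 83 and 5, 37 and 8, and 34 and 12, and in EGCs 58 and 24, 57 and 37, and 52 and 30. At an unadjusted limma p under 0.05 there were 4, 2 and 4 of the 9, with Apoe among them each time, and 2156, 2156 and 1906 of all 11083. The median tested gene was itself 0.44 higher in PGCLCs, 0.47 higher in iPGCs and 0.07 higher in EGCs than in PGCs. Relative to it, Apoe was higher by 3.16, 3.50 and 3.03, and Apoc1 by 4.41, 3.85 and 2.70. With library medians made equal, neither PGCLC call held (limma adjusted p = 0.0608 for Apoe and 0.0564 for Apoc1). Both also lost the threshold when any single library other than PGC library 2 was left out (limma adjusted p = 0.0814 to 0.215 for Apoe and 0.0502 to 0.222 for Apoc1), with differences of 2.69 to 4.50 and 3.53 to 5.05. Without PGC library 2 the limma adjusted p was 0.0378 for Apoe and 0.0186 for Apoc1, and Apoc1 then also passed in iPGCs (5.63, 0.0142) and in EGCs (4.08, 0.0321).

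Markers of other cell types are given beside Apoe and Apoc1, and the part of those cells in their levels was not tested. The 10 macrophage markers summed to 112 FPKM in PGC library 1, where Apoe was lowest, to 5.74 in PGC library 2, and to between 3.21 and 16.4 in the other 6, most of it Cd68. C1qb, C1qc, Tyrobp and Adgre1 were listed at 0 in all 8 libraries, and Lyz2 did not exceed 0.308 FPKM outside PGCs. Of the fibroblast markers, Col1a2, Col3a1, Dcn and Lum were listed at 0 in both EGC lines, which had been grown on feeder fibroblasts, Col1a1 was at 0.0142 and 0 FPKM, and Thy1 at 0.963 and 3.56, its highest level of the 8 libraries in line 7. The visceral endoderm markers that are not among the 10 genes (Amn, Hnf4a, Rhox5 and Spink3) summed to 61.1 and 34.3 FPKM in iPGCs and to 0 and 1.84 in PGCLCs, where Apoe was at 238 and 67.0 FPKM. Nearly all of the iPGC sums was Spink3 (60.3 and 32.8 FPKM), with Rhox5 listed at 0 in every library, Hnf4a at 0 and 0.377 in iPGCs, and Amn at 0.854 and 1.11 there, 0 and 1.84 in PGCLCs and 1.34 and 0 in EGCs. In bulk RNA, more cells expressing a gene and more RNA per cell cannot be told apart.

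Apoe (chr7:19696109-19699188, GRCm38, minus strand) and Apoc1 (chr7:19689481-19692660, minus strand) lie 3448 bases apart in a cluster with Apoc4 and Apoc2. Their levels went together over the 8 libraries (Pearson r of log2(FPKM + 1) = 0.90, a description over 4 groups that share libraries). The 2 further genes of the cluster were lower: Apoc2, the activator of lipoprotein lipase, was at 2.67 and 0.165 FPKM in PGCs, 0 and 2.19 in iPGCs, 0 and 12.5 in PGCLCs, with 0 and 2.62 in EGCs. Apoc4 was listed at 0 in 7 libraries and at 2.95 FPKM in PGCLC library 2. The high levels in iPGCs, PGCLCs and EGCs were thus seen for Apoe and Apoc1 and not across the whole cluster.

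Apoa2 (chr1:171225054-171226379, plus strand) was at 1.72 and 0 FPKM in PGCs, 0 and 2.44 in iPGCs, 0 and 11.4 in PGCLCs, with 7.76 and 8.61 in EGC lines 4 and 7. EGCs were the only group in which both libraries had signal, from about 41 and 54 reads. They were 2.48 ± 1.17 above PGCs (SE, limma, adjusted p = 0.332) and 2.31 ± 1.17 above iPGCs (0.543), without overlap, and neither difference passed. Its transcript is 518 bases at the longest, and 1 read was worth 0.14 to 0.92 FPKM, so the zeros were less well bounded than for the longer genes.

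Dab2 (chr15:6299788-6440712, plus strand) was at 25.3 and 9.17 FPKM in PGCs, 12.9 and 9.92 in iPGCs, 0.314 and 0.786 in PGCLCs, with 0.173 and 1.11 in EGC lines 4 and 7. The 4 libraries of PGCs and iPGCs all lay above the 4 libraries of PGCLCs and EGCs. Cubn (chr2:13276338-13491813, minus strand) was at 4.05 and 2.32 FPKM in PGCs, 4.31 and 2.21 in iPGCs, and 0.00989 and 0.0946 in PGCLCs, and was listed at 0 in both EGC lines. The receptor gene thus divided the libraries in the same way as its adaptor. Both are long transcripts, so their levels rest on about 200 to 2500 reads for Dab2 and 160 to 1000 for Cubn in PGCs and iPGCs. In the other 2 groups they rest on 13 to 97 reads for Dab2 and at most 20 for Cubn.

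PGCLCs minus PGCs was -3.42 ± 0.69 for Dab2 (SE, limma, adjusted p = 0.0592) and -1.96 ± 0.55 for Cubn (0.112). PGCLCs minus iPGCs was -3.01 ± 0.69 for Dab2 (limma adjusted p = 0.783) and -1.97 ± 0.55 for Cubn (0.812), with unadjusted p of 0.00198 and 0.00638. For Dab2, EGCs differed by -3.38 ± 0.69 from PGCs (limma adjusted p = 0.071) and by -2.97 ± 0.69 from iPGCs (0.28). For Cubn, listed at 0 in EGCs, no difference is given, and the limma adjusted p was 0.12 against PGCs and 0.296 against iPGCs. None of these passed the threshold, although the groups did not overlap. Over all tested genes, groups did not overlap in 45.2% for PGCLCs against PGCs, 36.8% for PGCLCs against iPGCs, 44.1% for EGCs against PGCs, 50.3% for EGCs against iPGCs and 52.5% for iPGCs against PGCs. The corresponding counts among the 10 genes were 4, 6, 5, 7 and 2. Without PGC library 2 the difference of Dab2 in PGCLCs from PGCs was -4.10 and passed (limma adjusted p = 0.037), and without PGC library 1 it was -2.73 (0.108). Between iPGCs and PGCs, Dab2 differed by -0.41 ± 0.69 (limma adjusted p = 0.779) and Cubn by 0.01 ± 0.55 (0.996). These intervals are wide, and the sign of each changed with the library left out: for Dab2 the difference was 0.28 without PGC library 1, and for Cubn it was -0.29 without PGC library 2 and -0.35 without iPGC library 1.

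No gene among the 9 tested was called between PGCLCs and iPGCs, EGCs and iPGCs, or EGCs and PGCLCs. Over all genes, limma called 0.0180%, 0.117% and 0.0993% in these comparisons in either direction. At an unadjusted limma p under 0.05 there were 2, 2 and 1 of the 9, and 519, 1143 and 1538 of the 11083. Among the 10 genes, EGCs and PGCLCs did not overlap in 2 (Apoc1 and Cubn), against 46% of all tested genes.

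**Figure D2:**
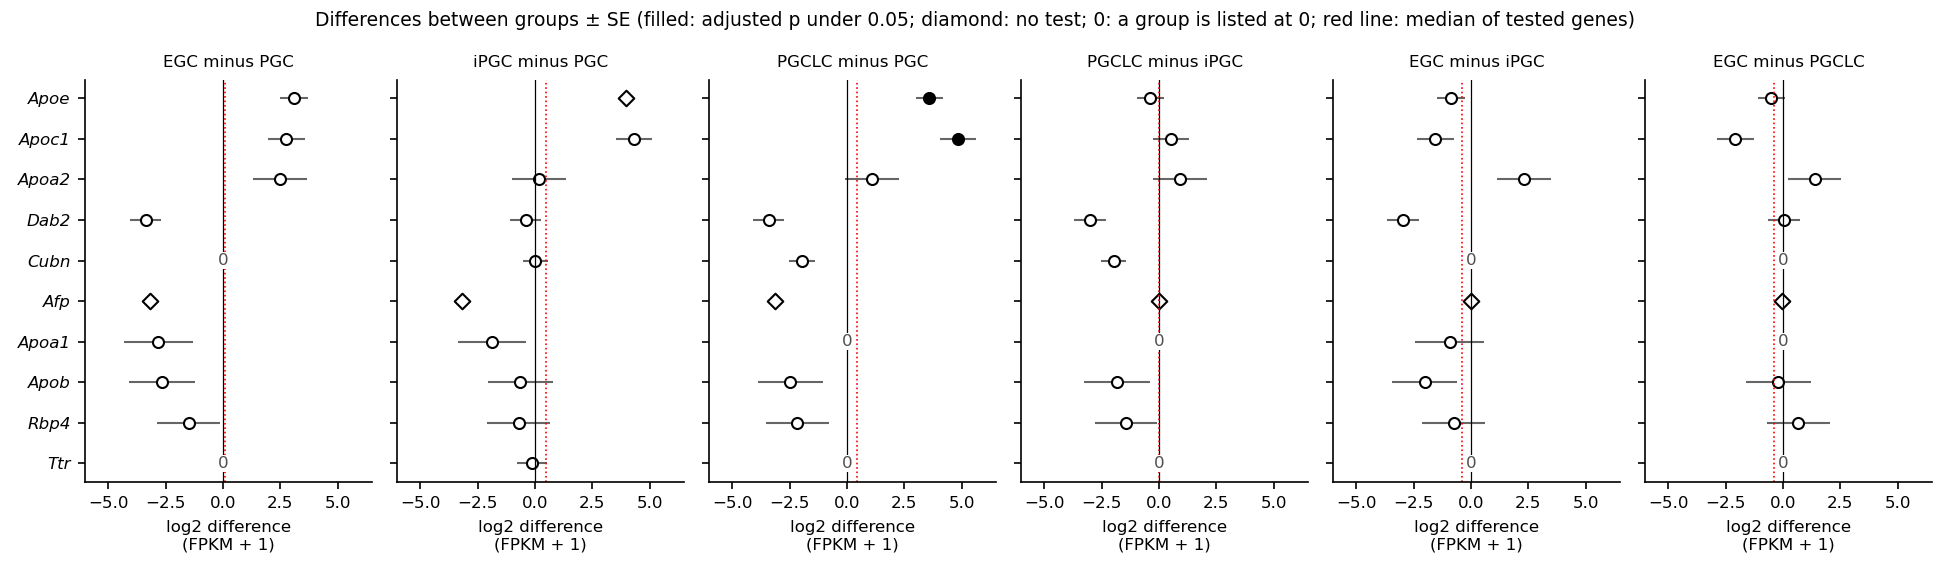
Differences between groups on the log2(FPKM + 1) scale (horizontal axis) for the 10 genes in the 6 comparisons, with SE as bars. Filled points passed limma adjusted p under 0.05 (Apoe and Apoc1 in PGCLCs against PGCs). The PGC values behind the Apoe point were known beforehand. Diamonds mark values with no test (Afp, and Apoe in iPGCs against PGCs, which was known beforehand). A 0 marks a gene listed at 0 in both libraries of a group, and the dotted line is the median of all tested genes.

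Afp, Apoa1, Apob and Rbp4 were far higher in PGC library 1 than in any other library, and Ttr, low throughout, was measured in 2 libraries. Afp (chr5:90490737-90508907, plus strand) was at 82.6 FPKM in PGC library 1, from about 3500 reads, and at 0 in PGC library 2. In the other 6 libraries it was at 0 or at most 0.0559 FPKM, the level of about 1 read in PGCLC library 1. Apoa1 (chr9:46228580-46230466, plus strand) was at 53.0 and 0 FPKM in PGCs, 1.97 and 0.337 in iPGCs, 0 in both PGCLC libraries, and 0.0872 and 0 in EGC lines 4 and 7. Outside PGC library 1 it rested on at most about 5.6 reads. Apob (chr12:7977648-8016835, plus strand), whose coding transcript of 13934 bases is the longest of the 10, was at 43.2 and 0.0481 FPKM in PGCs, about 13000 and 11 reads. It was at 2.04 and 5.25 FPKM in iPGCs, 0.347 and 0.126 in PGCLCs, with 0.133 and 0.0136 in EGCs. iPGCs were therefore the only other group above 1 FPKM, in both libraries. Rbp4 (chr19:38116629-38125281, minus strand) was at 26.7 and 0 FPKM in PGCs, 3.30 and 1.36 in iPGCs, 0.383 and 0 in PGCLCs, with 2.51 and 0 in EGCs. Its plasma partner Ttr was at 1.85 FPKM in PGC library 1 and 1.36 in iPGC library 2, about 41 and 26 reads, and was listed at 0 in the other 6 libraries.

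Between the PGC libraries, on the log2(FPKM + 1) scale, library 1 exceeded library 2 by 6.38 for Afp, 5.76 for Apoa1, 5.40 for Apob, 4.79 for Rbp4, 1.51 for Ttr, 1.44 for Apoa2, 1.37 for Dab2 and 0.61 for Cubn. Apoe and Apoc1 went the other way, with differences of -0.76 and -2.63. So 8 of the 10 genes were higher in library 1, against 44% of all tested genes. A difference as large in that direction was seen in 0.0451% of tested genes for Afp, 0.117% for Apoa1, 0.18% for Apob and 0.406% for Rbp4, but in 12.6% for Ttr, 13.3% for Apoa2, 14.4% for Dab2 and 27% for Cubn. The gap for Afp was known when the genes were picked, and these shares describe 2 libraries without a test. The 46 genes, Afp among them, at 10 FPKM or more in library 1 and under 1 FPKM in every other library were not tested. These shares therefore leave out the genes most particular to library 1.

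**Figure D3:**
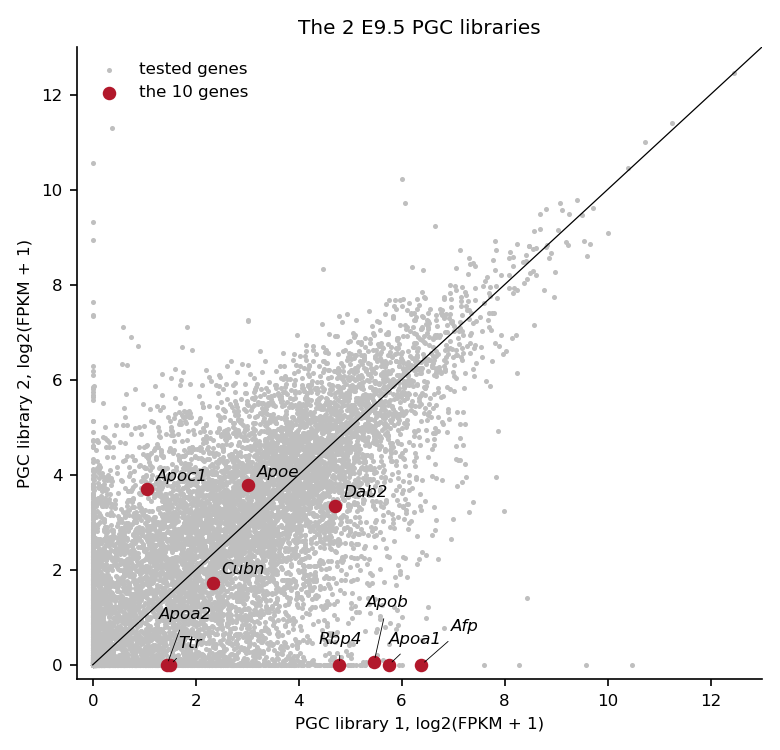
Each tested gene (grey) and the 10 genes (red) by log2(FPKM + 1) in PGC library 1 (horizontal axis) and PGC library 2 (vertical axis); the line marks equal values. Afp, Apoa1, Apob and Rbp4 lie at the right edge of the cloud near 0 in library 2, whereas Apoe and Apoc1 lie above the line. Genes at 1 FPKM or more in only 1 library are not in the grey cloud.

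With 1 library high and the other at or near 0, no group difference of these genes passed. Against PGCs, Apoa1 differed by -2.82 ± 1.50 in EGCs (SE, limma, adjusted p = 0.387) and by -1.88 ± 1.50 in iPGCs (0.523). Apob differed by -2.67 ± 1.43 in EGCs (limma adjusted p = 0.39), by -2.47 ± 1.43 in PGCLCs (0.393) and by -0.64 ± 1.43 in iPGCs (0.838). For Rbp4 the differences were -1.49 ± 1.37 (limma adjusted p = 0.623), -2.16 ± 1.37 (0.433) and -0.72 ± 1.37 (0.803) in the same order. Which PGC library stood for the group set the sign. Without library 1, Apoa1 differed from PGCs by 0.06 in EGCs and 0.99 in iPGCs, Apob by 0.03 in EGCs, 0.23 in PGCLCs and 2.06 in iPGCs, and Rbp4 by 0.91, 0.23 and 1.67. Without library 2, Apoa1 (-5.70, limma adjusted p = 0.028) and Apob (-5.37, 0.0297) passed as lower in EGCs. Apob (-5.17, 0.022) and Rbp4 (-4.56, 0.0485) then passed as lower in PGCLCs, and Apoa1 (-4.76, 0.0289) as lower in iPGCs.

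Markers of several other cell types were also higher in PGC library 1, and those of others were lower. The 10 macrophage markers summed to 112 FPKM in library 1 against 5.74 in library 2, with Lyz2 at 62.1 against 0.713, Cd68 at 24.1 against 0, and Fcer1g at 21.4 against 4.85. C1qa and Mrc1, a further pair of macrophage markers, were at 0 and 0.0586 FPKM in library 1. The 5 platelet markers summed to 75.3 against 0, with Pf4 at 27.2 and Ppbp at 18.5 FPKM. The 7 hepatoblast markers other than Afp summed to 18.2 against 0, with the liver genes Alb at 4.02, Trf at 3.98, Serpina1b at 3.39 and Fgb at 3.17 FPKM. For visceral endoderm the 4 markers other than the studied genes summed to 4.29 against 0, of which Hnf4a, a regulator of both visceral endoderm and liver genes, gave 3.14. Amn, the partner of cubilin, and Rhox5 were listed at 0 in both libraries. Mesoderm markers summed to 56.6 against 21.6, with T (brachyury) at 37.9 against 0 and Hand1 at 3.75 against 0.0518. Tbx4, at 7.11 against 13.4, and Msx2, at 7.87 against 8.23, were lower in library 1, and Mixl1 was listed at 0 in both. Fibroblast markers summed to 12.6 against 0.896. Gut endoderm markers summed to 66.4 and 58.6. Germ cell markers summed to 596 and 1379 FPKM, parietal endoderm markers, of the other yolk sac endoderm, to 146 and 216, endothelial markers to 21.3 and 56.5, and the 3 erythroid markers with an entry to 4.15 and 32.7, all lower in library 1. Whether any of these cell types contributed to the transcripts of Afp, Apoa1, Apob, Rbp4 or Ttr was not tested.

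PGC library 1 had 46 genes at 10 FPKM or more that were under 1 FPKM in all 7 other libraries, 1.29% of its genes at that level, against 4 to 29 genes in each other library. Afp was 1 of them and the only one of the 10 studied genes. The 10 highest were Traj15, Mir1898, Afp, Lyz2, Ctss, BC028471, Il1rn, Wfdc17, Napsa and Bst1, of which Lyz2 (lysozyme, 62.1 FPKM) and Ctss (cathepsin S, 51.3 FPKM) are myeloid genes. FPKM of very short loci such as Traj15 and Mir1898 is uncertain. PGC library 2 had 17 such genes, of which the 10 highest held 7 microRNA loci besides Tmsb15a, AI182371 and Selp.

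Of the 3 neighbours of Apoa1 in its cluster on chromosome 9, 1 was measured in the same library. Apoa4, another apolipoprotein gene of high density lipoproteins, was at 9.31 FPKM in PGC library 1 and at most 0.0455 elsewhere. Apoc3, 2466 bases from Apoa1, and Apoa5 were listed at 0 in all 8 libraries. Across the 8 libraries Apoa1 went with Apob (Pearson r of log2(FPKM + 1) = 0.92) and with Rbp4 (0.93), and Apob with Rbp4 (0.89) and Ttr (0.92). Dab2 and Cubn went together at 0.98, and Apoc1 and Apoa1 in opposite ways at -0.74. These correlations are over libraries that include the single high one and are given without a test.

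Other genes of lipoprotein assembly, exchange and uptake were counted as a list of 30, of which 16 were tested. Pltp, the phospholipid transfer protein, was the single one that rose, beside 0.523% of all tested genes in EGCs and 0.938% in PGCLCs. It was at 0.107 and 0 FPKM in PGCs, 7.64 and 11.4 in iPGCs, 11.6 and 12.4 in PGCLCs, with 7.61 and 24.5 in EGCs, so that both PGC libraries lay below all 6 others. It rose by 3.82 ± 0.66 in EGCs (SE, limma, adjusted p = 0.0488) and by 3.63 ± 0.66 in PGCLCs (0.0481), and the difference in iPGCs of 3.30 did not pass (0.0657). Leaving out any 1 library ended both calls (limma adjusted p = 0.0673 to 0.161 in EGCs and 0.0566 to 0.222 in PGCLCs). The median difference of the 30 genes was -0.02 in EGCs, 0.00 in iPGCs and 0.00 in PGCLCs against PGCs, beside 0.07, 0.47 and 0.44 over all tested genes.

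Lipoprotein receptors were measured in most libraries. Scarb1, the high density lipoprotein receptor, was at 59.0 and 1.22 FPKM in PGCs, 21.9 and 32.7 in iPGCs, 42.7 and 24.0 in PGCLCs, with 5.35 and 11.0 in EGCs. Lsr, a receptor stimulated by lipolysis, ranged from 4.67 to 26.8 FPKM. Lrp1, a further receptor for Apoe, ranged from 0.626 to 17.1 FPKM, and Sort1, which binds apolipoprotein B in the secretory pathway, from 0.630 to 12.7. Clu, which also codes for an apolipoprotein, ranged from 0.883 to 12.6 and the cholesterol esterifying enzyme Soat1 from 2.91 to 11.2 FPKM. Mttp, which loads lipid onto apolipoprotein B, was at 5.57 FPKM in PGC library 1, the library with Apob at 43.2, and at most 0.551 elsewhere. Scarb1, Lrp1 and Mttp were thus much higher in PGC library 1 than in library 2, as were 15 of the 30 genes in all, with 6 lower. Genes of the list at 1 FPKM or more numbered 16 in PGC library 1 and 8 in library 2, against 9 to 16 in the other 6.

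None of 17 tested genes of cholesterol synthesis and cell uptake, from a list of 20, passed the test in any of the 6 comparisons. Their levels showed no split between the PGC libraries: 15 of the list were at 1 FPKM or more in each, and 10 were higher and 8 lower in library 1. Against PGCs the median difference of the 19 genes with an entry was 0.72 in EGCs, 0.73 in iPGCs and 0.88 in PGCLCs, beside 0.07, 0.47 and 0.44 over all tested genes. In PGCLCs 18 of the 19 were above 0, where 66.4% of all tested genes were. Members at 10 FPKM or more in some library included the enzymes Hmgcs1 (up to 45.9 FPKM), Sqle (31.8) and Cyp51 (31.3), the regulators Srebf2 (26.4) and Scap (28.1), and the lysosomal cholesterol exporter Npc1 (93.4). Mvd is not analysed here.

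Retinol and thyroid hormone transport was covered by 13 genes besides Rbp4 and Ttr, 6 of them tested. Crabp1, a cellular retinoic acid binding protein, fell by 4.52 ± 0.75 in EGCs against PGCs (SE, limma, adjusted p = 0.0454). It was at 65.6 and 22.1 FPKM in PGCs, 20.2 and 23.4 in iPGCs, 3.94 and 8.20 in PGCLCs, with 0 and 1.93 in EGCs, so the PGC and iPGC libraries lay above the other 4, as for Dab2. The call was lost without any 1 library other than PGC library 2 (limma adjusted p = 0.0798 to 0.235). Its relative Crabp2 was at 6.67 and 26.1 FPKM in PGCs, 11.1 and 6.04 in iPGCs, 0 and 1.57 in PGCLCs, with 5.83 and 3.94 in EGCs, and passed in no comparison. Of the 6 tested genes, 1 fell and none rose in EGCs against PGCs, beside 0.217% and 0.523% of all tested genes. None of the 6 passed in the other 5 comparisons.

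From a list of 30 further yolk sac endoderm genes, 12 were tested. For Spink3 and Cldn6 the higher level in iPGCs was known when the list was made, so both are described without a test. Spink3, a secreted protease inhibitor, was at 1.15 and 0 FPKM in PGCs, 60.3 and 32.8 in iPGCs, 0 in both PGCLC libraries, and 0 and 0.247 in EGCs. The tight junction gene Cldn6 was at 0.290 and 0.104 FPKM in PGCs, 64.7 and 73.2 in iPGCs, 2.31 and 40.7 in PGCLCs, with 18.2 and 20.7 in EGCs. Cited1, a transcriptional coregulator, reached 5.42 and 9.69 FPKM in iPGCs and at most 0.107 elsewhere, with both PGC libraries listed at 0. On the log2(FPKM + 1) scale iPGCs minus PGCs was 4.96 for Spink3 and 5.87 for Cldn6. Of the other tested genes of the list, Cited1 passed in iPGCs (limma adjusted p = 0.0426) and lost the threshold without any 1 library (0.0579 to 0.294). No gene of the list passed in PGCLCs or EGCs against PGCs.

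Levels of the same list also differed between the 2 PGC libraries. In it 14 of the 30 genes reached 1 FPKM, against 4 in PGC library 2, 8 and 12 in iPGCs, 4 and 8 in PGCLCs, with 5 and 6 in EGCs. Between the PGC libraries, 16 genes were higher and 6 lower in library 1. The highest of the list in both PGC libraries were Emb, at 12.5 and 39.4 FPKM in PGCs and 19.0 to 50.3 elsewhere, and Sepp1 (selenoprotein P), at 10.8 and 71.6 in PGCs and 0.776 to 31.2 elsewhere. Both were higher in PGC library 2, unlike Alb, Fgb, Serpina1b and Hnf4a, which were listed at 0 there. In both iPGC libraries, where Spink3 and Cldn6 were high, Alb and Serpina1b were listed at 0, and Fgb and Hnf4a reached at most 0.0782 and 0.377 FPKM. The separation was not complete. iPGCs had Trf at 0.630 and 2.56 FPKM, and Apob and Rbp4 above 1 FPKM in both libraries, while Spink3 was at 1.15 FPKM in PGC library 1.

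**Figure D4:**
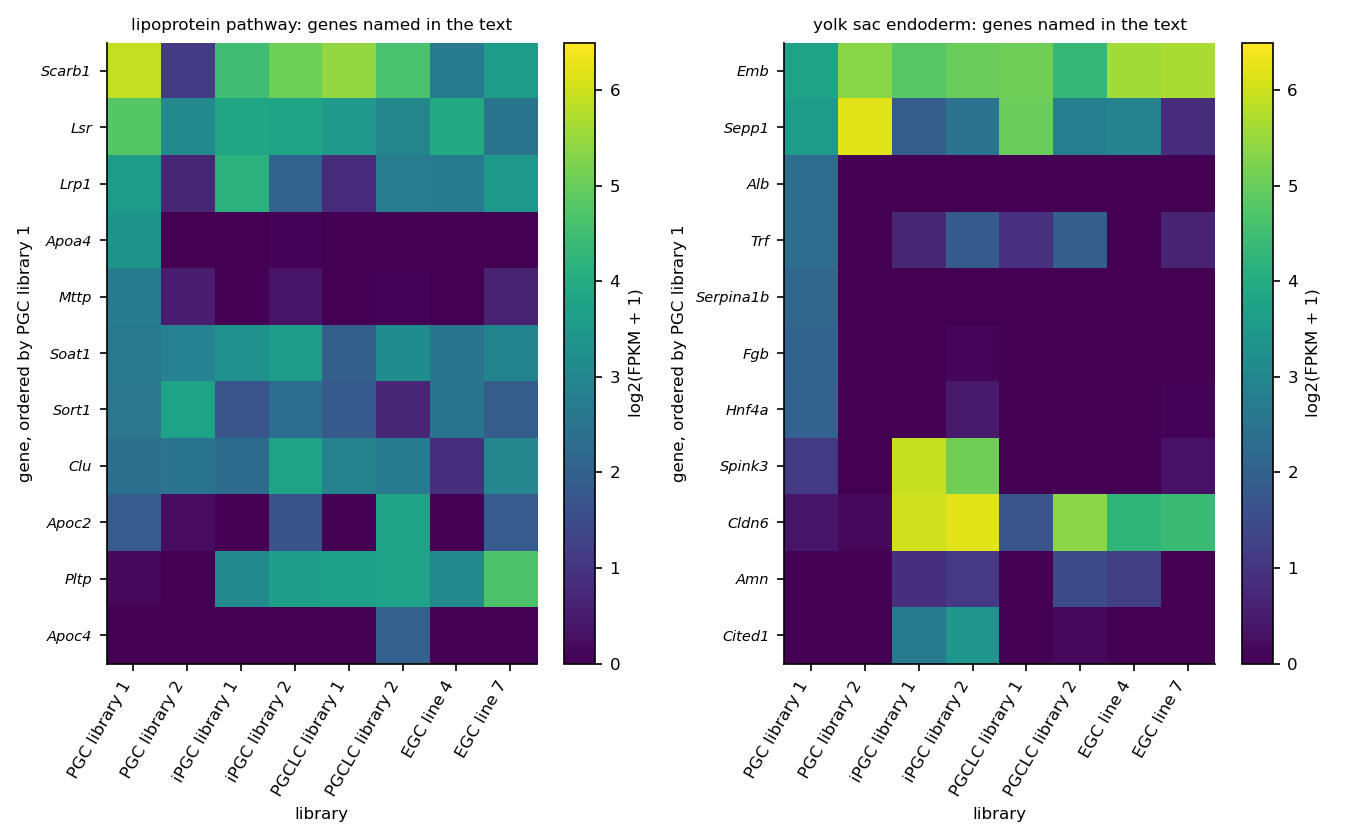
Levels, as log2(FPKM + 1) in colour, of the 11 lipoprotein pathway genes (left) and 11 yolk sac endoderm genes (right) given by name, by library (columns), ordered by PGC library 1. Alb, Fgb, Serpina1b and Apoa4 show in PGC library 1, Spink3 and Cited1 in iPGCs, and Pltp in all groups but PGCs.

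The genes whose levels ran most like each of the 10 were sought by Pearson r of log2(FPKM + 1) over the 8 libraries, among genes that reached 10 FPKM in some library. For Apoe they were Pigyl (0.988), Mcoln1 (0.983) and Gemin2 (0.977), and for Apoc1 they included Klf10 (0.988) and Prpf40b (0.984). Pigyl, for example, stood at 0 and 0.155 FPKM in PGCs, against 11.4 to 56.4 in the other 6 libraries. Apoa1 was matched by Cd74 (0.999), Gsto2 (0.993) and Zfp473 (0.988). Cd74, the invariant chain of MHC class II, was at 63.6 FPKM in PGC library 1 and at most 2.62 elsewhere. Apob was nearest to Myl7 (0.982), a myosin light chain of the heart atria at 60.4 FPKM in PGC library 1 and at most 5.09 elsewhere, then Thbs1 (0.965) and Pmp22 (0.961). Rbp4 was nearest to Basp1 (0.949), Sox11 (0.947) and Ttc33 (0.938), and Ttr to Alad (0.967), Klc1 (0.944) and Sdc3 (0.942). For Cubn the first match was Dab2 itself (0.977), followed by Amot (0.972) and Nsmce4a (0.951). Amot also led for Dab2 (0.976), before Dgcr2 (0.975), and was at 13.6 and 9.71 FPKM in PGCs, 10.6 and 5.38 in iPGCs, 0.519 and 1.58 in PGCLCs, with 0.244 and 0.844 in EGCs. Apoa2 was nearest to Purg (0.974), Dhodh (0.935) and Bnip3 (0.929). These values, the highest among many genes over only 8 libraries, are a description without a test.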

How the data were processed

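RNA from 8 mouse libraries had been amplified with an Ovation kit and sequenced as 50-base single-end reads, 8 libraries multiplexed in 2 lanes, per the labels' protocols. The deposited table holds FPKM, computed by the authors, in 8 columns. The submitters' processing notes name TopHat2, Cufflinks and GRCm38 (mm10). Their versions, the annotation, strand use and filters were not given in the sources used here. The added ERCC RNA is not analysed here. Of 20171 entries, 18 repeats were dropped, leaving 20153 identifiers. Symbols came from a gene name table (19747 matched), since 27 had become dates, and coordinates and lengths from the GRCm38 annotation. The 10 genes, the related lists, the markers and the promoter words were chosen with earlier results of these data known.

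Depth is not stated. It was approximated from the lowest values of 2278 single-transcript genes of over 1000 bases, assuming 200-base fragments, and read numbers derived from it are approximate and cover counting error only. The 11083 genes that reached 1 FPKM in 2 or more libraries were compared on log2(FPKM + 1), pseudocount 1, with limma 3.58.1 in R 4.3.3 (trend and robust variance). All 8 libraries shared 1 estimate of the spread (4 residual degrees of freedom, median prior 4.53). Two-sided p-values were adjusted over all tested genes (Benjamini-Hochberg). The step was tested on simulated data. Since a value of exactly 0 can be a failed estimate, such a gene is called listed at 0, and no difference is given where both libraries of a group are at 0. Genes named besides the 10 were list members that passed a test or reached 10 FPKM, given by value or range, genes among the 3 with the nearest profile, the 10 highest genes of a PGC library, and markers. Mttp, Alb, Fgb, Serpina1b, Hnf4a, Apoc4, Apoc3, Apoa4 and Apoa5 were named after their values were seen or as cluster neighbours. The 17 other settings included other pseudocounts, filters, scalings and fits, each library left out, and a replicate block. Some genes of the lists and profiles are not reported here.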

Additional observations from a re-analysis of the deposited data

How the results depend on the processing

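The same PGC values of Apoe, known when it was picked, enter its calls in every group below. Against PGCs, the number of the 9 tested genes past the threshold was 2 in PGCLCs, 1 in iPGCs (Apoe, known when it was picked and no support) and 0 in EGCs. With a pseudocount of 5 it was 1 in PGCLCs and 0 in iPGCs. With no filter it was 0 in both, and with a filter at 5 FPKM it was 2 in iPGCs. Quantile normalization gave 1 in PGCLCs and 1 in EGCs (Apoe, limma adjusted p = 0.0291), and equal library medians gave 0 in PGCLCs. With only the 2 groups compared in the fit, it was 0 in PGCLCs and iPGCs. Leaving out 1 library at a time gave 0 to 6 in PGCLCs, 0 to 3 in iPGCs and 0 to 3 in EGCs, the highest always without PGC library 2. In a fit with 1 library left out, the lone library of its group is assumed to vary like the other groups. In the 3 comparisons without PGCs the number of the 9 was 0 in every setting run. A replicate block over PGCs, iPGCs and PGCLCs, whose labels share replicate numbers, gave 0 in PGCLCs (limma adjusted p = 0.128 for Apoe and 0.102 for Apoc1) and 0 in iPGCs. Deviations of same-numbered libraries correlated at 0.01, -0.03 and 0.06, so no large shared effect of the replicate number was seen. Whether same-numbered libraries were handled together cannot be told from these correlations.

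Of 489 values of 30 reported differences under other settings, 426 kept direction and side of the threshold, 34 lost and 11 gained it, and 18 reversed. In iPGCs minus PGCs, Cubn was -0.71 with quantile normalization, -0.48 with equal medians and -0.35 to 0.37 with 1 library left out, and Apob and Rbp4 were 0.42 and 0.44 at a pseudocount of 0.1. With 1 library left out, the same comparison ran from -1.09 to 0.28 for Dab2, -4.76 to 0.99 for Apoa1, -3.34 to 2.06 for Apob and -3.12 to 1.67 for Rbp4. EGCs minus PGCs ran from -5.70 to 0.06 for Apoa1, -5.37 to 0.03 for Apob and -3.89 to 0.91 for Rbp4, and PGCLCs minus PGCs from -5.17 to 0.23 for Apob and -4.56 to 0.23 for Rbp4. Apoe ran from -1.28 to 0.53 in PGCLCs minus iPGCs and from -1.40 to 0.41 in EGCs minus PGCLCs, where quantile normalization gave 0.01. The cause of these changes was not tested beyond the library or setting named. The settings for Pltp, Crabp1, Spink3, Cited1 and Cldn6 were added after seeing the data. With 2 libraries per group only large differences passed, the smallest 2.45, 2.52 and 2.44 in PGCLCs, iPGCs and EGCs against PGCs.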
